A study of Homo sapiens with 12 samples.

Results

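The clusters described here are stretches of the genome with much acetylated chromatin in regions that each lie away from the starts of protein-coding genes, in most cases with 2 or more such regions close together. They were measured in HCT116, an established human colorectal carcinoma cell line, by CUT&RUN for H3K27ac, in which a nuclease tethered to an antibody releases the DNA fragments that carry the acetylated histone. The study held 2 H3K27ac libraries of untreated cells, 2 of cells given 1 µM cobimetinib for 24 h, and 2 of cells given 100 ng/ml TNFα for 24 h. All 6 libraries came from this line, for which the labels name no engineered allele, the controls were untreated rather than given a vehicle, and the 6 IgG libraries were not analysed here. Cobimetinib blocks the kinase MEK1 and so the MAPK pathway, whereas the inflammatory cytokine TNFα switches on NF-κB and stress kinases, so the groups ask how distal acetylation stands when this signaling is lowered or raised. The study's methods call them replicates of the treatment, but no source used here says that they were grown as separate cultures, so p-values measure the spread between these libraries, which may be technical.

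The members were chosen by the deposited peak lists themselves. The 20000 highest-scoring peaks of each of the 6 libraries were merged where they lay within 100 bp, which gave 38598 regions, and 12417 of these were held by at least 5 libraries. Of these, 6011 lay more than 1 kb from every start of a protein-coding transcript. Stitching distal regions within 12.5 kb of each other made 5073 clusters, 4388 of which held 1 region, and the 300 clusters with the most summed region length were taken, 5.91% of all clusters. They contained 806 regions and 16.4% of all distal region bases. The 300th cluster held 3943 bp and the next in size 3941 bp, so the boundary is a point on a smooth curve. Size and holding by at least 5 libraries were what the selection used, so the sizes below are a description. A region outside the 20000 highest peaks of both libraries of a group could not be a member. The ranks and coverage compared below come from the same lists, and how far this limits their differences was not tested.

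**Figure D1:**
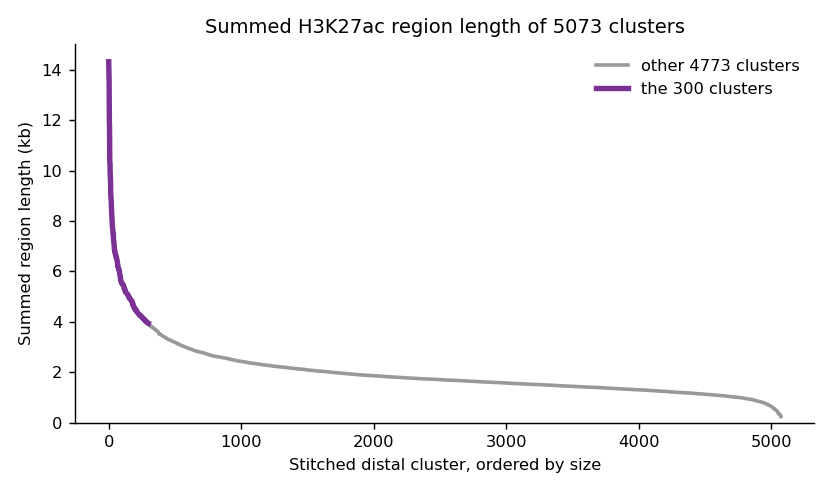
Summed length of H3K27ac regions (y axis, kb) in each of 5073 stitched distal clusters, ordered from largest to smallest (x axis). The purple part of the line marks the 300 clusters described here, from 14318 bp down to 3943 bp, and the gray part the other 4773, and no step separates them.

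Enhancers are stretches of DNA outside promoters that transcription factors bind and that raise the transcription of genes which may lie far away. H3K27ac marks active enhancers and promoters, and groups of neighboring enhancers with unusually much of the mark are called super-enhancers, a term usually reserved for clusters ranked by signal. Here no read signal was used, so the 300 are long acetylated clusters and were not shown to be super-enhancers in that sense. AP-1, the dimer of FOS and JUN proteins, acts at the end of the MAPK pathway. Its binding motif was searched here as the word TGANTCA, a pattern that reads the same on both strands. The pattern takes in TGAGTCA and TGACTCA, forms found in the study's reporter motifs. It also takes in TGAATCA and TGATTCA, and the forms were not counted apart.

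The windows below show what the DNA of these clusters looks like. For each of the 8 largest clusters, the 200-bp window of a constituent region with the most AP-1 words is given on the plus strand of hg38, with the AP-1 words in capitals, and the name is that of the protein-coding gene with the nearest start.
SYTL3, chr6:158697907-158698106: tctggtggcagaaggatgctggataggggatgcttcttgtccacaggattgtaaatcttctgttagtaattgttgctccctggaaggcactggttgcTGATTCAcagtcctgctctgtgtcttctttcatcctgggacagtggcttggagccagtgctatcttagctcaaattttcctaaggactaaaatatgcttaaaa
SMURF2, chr17:64694276-64694475: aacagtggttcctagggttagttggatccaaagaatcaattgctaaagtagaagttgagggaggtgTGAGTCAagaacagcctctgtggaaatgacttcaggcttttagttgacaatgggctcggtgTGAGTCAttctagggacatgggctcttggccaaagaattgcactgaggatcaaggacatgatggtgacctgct
VMP1, chr17:59754610-59754809: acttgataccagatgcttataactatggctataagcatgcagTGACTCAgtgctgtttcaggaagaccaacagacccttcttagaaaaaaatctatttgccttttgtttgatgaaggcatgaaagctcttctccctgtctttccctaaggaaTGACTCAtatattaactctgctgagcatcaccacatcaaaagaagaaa
BLID, chr11:122167202-122167401: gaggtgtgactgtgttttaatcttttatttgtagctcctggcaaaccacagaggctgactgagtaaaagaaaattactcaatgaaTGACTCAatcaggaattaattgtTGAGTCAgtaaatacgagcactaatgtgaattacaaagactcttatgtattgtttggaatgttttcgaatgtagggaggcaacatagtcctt
TGIF1, chr18:3603517-3603716: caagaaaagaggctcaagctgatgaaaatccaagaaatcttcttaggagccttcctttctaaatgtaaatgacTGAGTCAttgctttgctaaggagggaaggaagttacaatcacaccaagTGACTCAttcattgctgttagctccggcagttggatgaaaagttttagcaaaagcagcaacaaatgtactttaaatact
MTHFD1L, chr6:151060212-151060411: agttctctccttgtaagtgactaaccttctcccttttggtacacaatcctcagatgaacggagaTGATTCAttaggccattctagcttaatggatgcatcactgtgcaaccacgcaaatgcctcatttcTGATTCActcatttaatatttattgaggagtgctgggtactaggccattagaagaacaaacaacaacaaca
NANOS3, chr19:13851226-13851425: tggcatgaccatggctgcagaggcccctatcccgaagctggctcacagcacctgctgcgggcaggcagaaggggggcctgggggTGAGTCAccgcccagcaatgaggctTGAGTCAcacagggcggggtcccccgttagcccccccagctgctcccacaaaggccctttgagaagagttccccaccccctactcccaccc
ERRFI1, chr1:8096634-8096833: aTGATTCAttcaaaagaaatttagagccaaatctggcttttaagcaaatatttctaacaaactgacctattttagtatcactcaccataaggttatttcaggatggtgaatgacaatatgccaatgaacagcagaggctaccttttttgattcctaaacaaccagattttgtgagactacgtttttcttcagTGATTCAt
The SYTL3 window held 1 AP-1 word and each of the other 7 windows held 2. In the SYTL3, MTHFD1L and ERRFI1 windows every such word was TGATTCA. The windows were picked for these words, so their number in a window is not a finding.

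A second set belongs to clusters that the results below turn on, and it was chosen after their values were seen. The PHLDB2, HS3ST1 and PITPNC1 clusters had the largest rank differences between TNFα and cobimetinib.
PHLDB2, chr3:111917626-111917825: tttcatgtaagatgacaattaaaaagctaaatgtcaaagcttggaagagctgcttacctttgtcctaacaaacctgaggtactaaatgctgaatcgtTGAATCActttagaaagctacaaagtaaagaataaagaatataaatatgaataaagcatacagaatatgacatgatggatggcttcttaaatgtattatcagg
HS3ST1, chr4:11496954-11497153: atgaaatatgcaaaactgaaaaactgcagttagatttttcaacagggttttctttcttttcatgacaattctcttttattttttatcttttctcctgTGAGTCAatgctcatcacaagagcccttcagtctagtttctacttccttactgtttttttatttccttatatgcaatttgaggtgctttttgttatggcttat
PITPNC1, chr17:67423111-67423310: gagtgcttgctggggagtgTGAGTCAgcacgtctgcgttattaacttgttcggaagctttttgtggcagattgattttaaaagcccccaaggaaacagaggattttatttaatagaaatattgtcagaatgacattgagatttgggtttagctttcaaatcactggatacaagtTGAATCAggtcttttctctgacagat
The PHLDB2 and HS3ST1 windows held 1 word each, and the PITPNC1 window 2. The PHLDB2 word and 1 of the PITPNC1 words were TGAATCA.

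The clusters spanned a median of 13869 bp from first to last region, with a range from 3943 to 52597 bp, and held a median of 5011 bp of acetylated region, against 1662 bp for the other clusters. Most were built of few regions. There were 10 clusters of 1 region, 151 of 2, 93 of 3 and 46 of 4 or more, with a maximum of 9. The cluster of 9 regions, at chr21:8433913-8467023, was made of short regions of 327 to 1072 bp. A cluster of 7 at chr16:46386287-46401639 held regions of 283 to 1703 bp. The median width over the regions of the 300 clusters was 2009.5 bp. Repeat content and background at these 2 loci were not tested. Of the 806 regions, 621 (77.0%) were held by all 6 libraries, against 61.7% of the regions of the other clusters. All regions in both sets were held by at least 5. The other regions were shorter, with a median of 1585 bp, and a longer region has more room for an overlap. This difference was not corrected for length.

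The largest cluster, at chr6:158686098-158738694, held 14318 bp in 6 regions in and beside SYTL3, which codes for a synaptotagmin-like protein of vesicle traffic, and its nearest coding start was 36044 bp away. The SMURF2 cluster at chr17:64663339-64713589 held 14052 bp in 8 regions and lay 1032 bp from the start of this ubiquitin ligase gene of the TGF-β pathway. The VMP1 cluster at chr17:59753552-59787654 held 13988 bp in 4 regions within VMP1, an autophagy gene, and within 100 kb of MIR21, a microRNA gene often raised in tumors. The fourth lay at chr11:122156727-122198031, 40512 bp from BLID and within 100 kb of MIR100, MIR125B1 and MIRLET7A2. Then came a cluster at chr18:3593116-3626001 in DLGAP1, 137702 bp from the homeobox repressor gene TGIF1, and the MTHFD1L cluster at chr6:151040428-151082905 in a gene of mitochondrial folate metabolism.

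The cluster at chr19:13839742-13881196 overlapped NANOS3 and contained the start of MIR23AHG, the host transcript of MIR23A, MIR27A and MIR24-2. ERRFI1, 49166 bp from the eighth cluster at chr1:8075475-8098508, codes for a feedback inhibitor of the EGF receptor. The remaining 4 of the 12 largest were nearest to KRR1, to IFNE with MIR31 within 100 kb, to CYP24A1, the vitamin D 24-hydroxylase gene, and to ELF3, an epithelial ETS factor gene. Nearest is a matter of distance here, and no cluster was assigned to a target gene.

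Across all 300, 153 (51%) overlapped the body of a protein-coding gene, against 53.4% of the other clusters, and 270 distinct genes were nearest to at least 1 cluster. The median gap to the nearest coding start was 34749 bp, against 25109 bp, and 67 clusters (22.3%, against 17.2%) lay more than 100 kb from any. Between their first and last region 10 of the 300 contained a protein-coding start. A long non-coding RNA start lay inside 65 clusters (21.7%, against 9.68%). A longer cluster has more room for such a start, and this difference was not corrected for length.

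The gene lists were placed against the clusters by distance. Of all 19676 protein-coding genes, 613 (3.12%) had a start within 100 kb of at least 1 of the 300. Of the lists, 6 of 19 keratin, junction and adhesion genes were that close, namely KRT7, KRT20, KRT80, CDH1, CLDN3 and CLDN4, and so were 4 of 28 intestinal and epithelial transcription factor genes, KLF6, ELF3, EHF and TCF7L2. The MAPK response list had 3 of 12, PHLDA1, EPHA2 and FOSL1, and the AP-1 subunit list 3 of 13, FOSL1, JUND and MAFF. ITGA3, ITGB1 and PLAU were 3 of 15 laminin, integrin and urokinase genes, EGFR and EPHA2 were 2 of 16 in the EGF receptor and ephrin list, SMAD3 and ID1 were 2 of 14 in the TGF-β list, and TEAD3 and CRIM1 were 2 of 16 in the YAP and TEAD list. The count was 0 of 12 for the TNF and NF-κB response genes, 0 of 16 for the Wnt targets and 0 of 20 for markers of other lineages. Within 100 kb of any of the 5073 clusters, the MAPK and the TNF lists each had 5 of 12 genes (41.7%), against 42.5% of all genes. The Wnt targets (8 of 16) and the markers of other lineages (10 of 20) each had 50%. The remaining lists had from 50% for the transcription factors to 81.25% for the YAP and TEAD list. The lists are short, differences between them were not tested, and they were chosen with earlier results known, so the counts are a description.

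The label of a colorectal epithelial line was checked at the start sites of marker genes. Of 14 epithelial markers, 8 had a peak of any rank within 1 kb of a start in all 6 libraries, among them KRT8, EPCAM, CDX2 and ELF3. This count takes in low peaks, such as that of KRT19 at rank 90850 in untreated replicate 2. VIL1, CEACAM5, CEACAM6 and LGALS4 had no such peak in any library, and CDH1 had a peak in only 2. Regions merged from the highest peaks gave another count. A merged region can reach beyond the peak of a library that holds it. Such a region lay at a start in all 6 libraries for 4 of the 14, KRT8, ELF3, KLF5 and GRHL2. KLF5 had a peak of any rank within 1 kb of a start in only 5 libraries. For 5 of the 14, CDH1 among them, it did so in no library. Of 20 markers of other lineages, 0 had a peak of any rank in all 6 libraries and 14 had none. By merged regions these numbers were 0 and 19.

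The regions of the 300 clusters were poor in CpG and rich in AP-1 words beside promoters. Their GC content was 44.5%, against 46.3% in the regions of the other clusters and 56.7% in 6406 start-site regions held as widely, and they had 14.0 CpG per kb, against 17.9 and 56.5. AP-1 words occurred 0.859 times per kb in the 300, 0.885 times in the other clusters and 0.258 times in start-site regions, whereas the same letters reversed, ACTNAGT, occurred 0.261, 0.262 and 0.178 times. In a 500-bp window at the region's center, 45.5% of the 806 regions held an AP-1 word, against 49.3%, 9.51% and, over all 38598 regions, 29.5%. For the reversed word these shares were 11.3%, 12.8%, 5.79% and 10.7%.

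The AP-1 words sat near the middle of the regions. Their density in the 300 was 1.27 per kb in the 100-bp bin centered 50 bp before the region's center and 1.22 per kb in the bin 50 bp after it. It was 0.236 and 0.360 per kb at 1450 bp before and after. In the other clusters the density at the center was higher, 1.53 and 1.61 per kb. The TEAD word GGAATG was held by 37.7% of the windows of the 300, 34.0% of those of the other clusters and 19.0% of start-site windows, and the CEBP word TTGCNNAA by 23.3%, 20.6% and 10.9%. The ETS word CCGGAAG went the other way, with 2.48%, 4.82% and 21.2%. With letters reversed, TEAD gave 15.1%, 14.3% and 14.3%, CEBP 6.33%, 5.28% and 7.12%, and ETS 6.33%, 7.78% and 12.8%. The reversed ETS word thus rose in the same order. The ETS word contains a CpG, and the part of base composition in these shares was not tested. An NF-κB word was held by 8.68%, 8.09% and 12.4%, near its reversed letters at 8.06%, 7.72% and 11.4%. TCF/LEF, KLF, FOX, CDX and GATA words were also searched and are not given here. Words were searched on both strands, and a match is not a bound site.

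**Figure D2:**
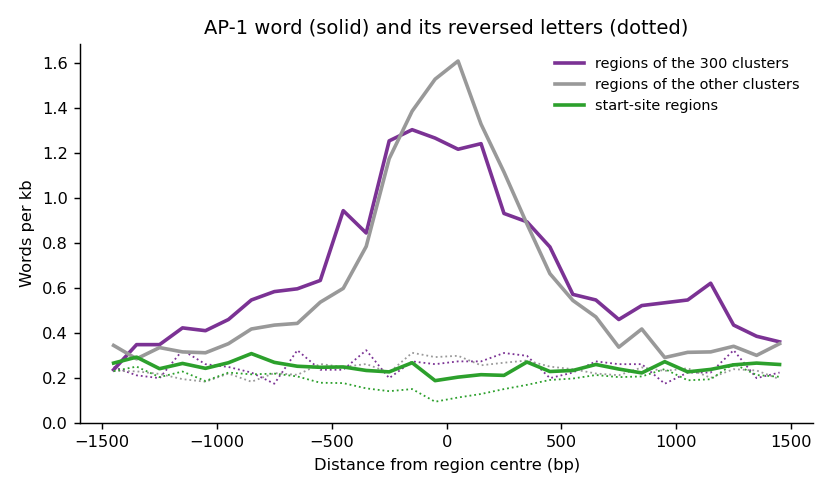
Density of the AP-1 word TGANTCA (solid lines) and of its reversed letters (dotted lines) in words per kb (y axis) by distance from the region's center in bp (x axis), in 100-bp bins. Both kinds of distal region peak around the center, with 1.22 to 1.27 words per kb in the central bins of the 300 clusters and 1.53 to 1.61 in the other clusters, whereas start-site regions stay at the level of about 0.2.

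The measure of level was the best rank, the place of the highest-scoring peak of a cluster in the full list of its library, where 1 is the highest. Ranks were used because the deposited scores rise with sequencing depth and no read counts were analysed here, so depth is unknown, and the lists held 69813 to 124771 peaks. The median best rank of the 300 was 1715 and 1395 under TNFα, 2582 and 1762.5 in the untreated libraries, and 2881 and 2358 with cobimetinib. The medians of the other clusters lay from 6057 to 7750, but those clusters are shorter, and the part of length in this gap was not tested. Both TNFα medians were better than the 4 others, with untreated replicate 2 close behind.

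Untreated replicate 2 stood apart. Its 20000 highest peaks had a median width of 380 bp, against 922 to 1265.5 bp in the other libraries, and of the 806 regions it alone lacked 110, against 6 to 29 for each other library. The 20000 highest peaks covered a mean of 45.2% of the region bases of a cluster in this library, against 84.5% in untreated replicate 1, 73.2% and 74.0% under cobimetinib, and 80.4% and 76.9% under TNFα. Comparisons with untreated cells rest on this pair of unlike libraries.

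**Figure D3:**
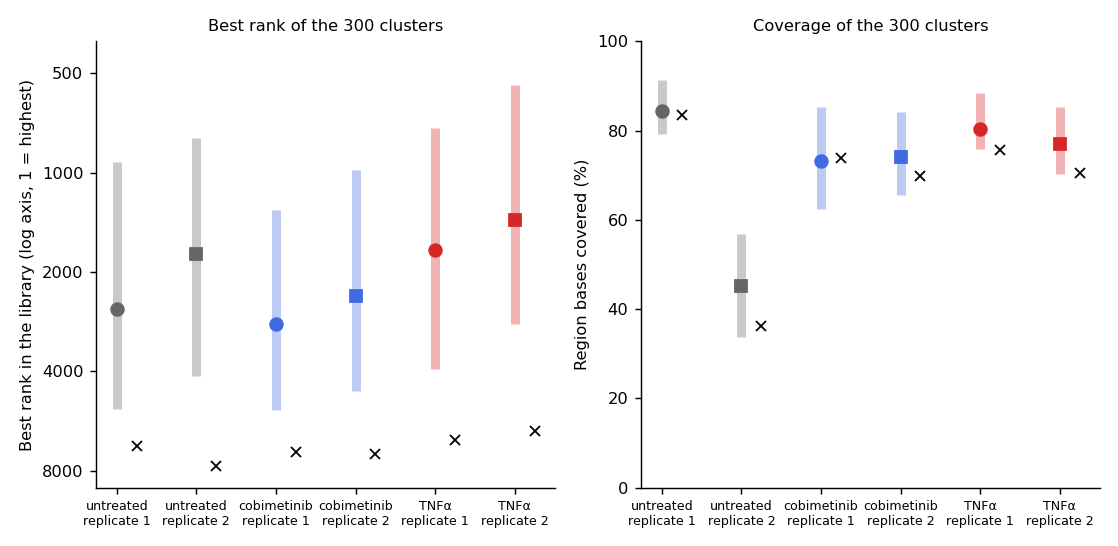
Left, best rank of the 300 clusters in each library (log axis, 1 = highest, better ranks up), with the median as symbol and the quartiles as bar. Right, percent of cluster region bases under the 20000 highest peaks, with the mean as symbol and the quartiles as bar. Crosses give the same median or mean for the other 4773 clusters. The TNFα medians of 1715 and 1395 are the best ranks, and the mean coverage of 45.2% in untreated replicate 2 is far below that of the other libraries.

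Within a cluster the leading region was often not the same across libraries. In 91 of the 290 clusters with more than 1 region (31.4%), the same region held the best peak in all 6 libraries, and among the 4 treated libraries it did so in 124 (42.8%). The SYTL3 cluster was led by region 4 or 5 in every library, with best ranks of 111 and 119 under TNFα, 76 and 192 in untreated cells, and 515 and 164 with cobimetinib. There the untreated ranks overlapped those of both treatments, while the TNFα and cobimetinib ranks did not overlap each other.

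In the main fits TNFα against cobimetinib was the comparison in which clusters passed the test. All of the 300 that passed there ranked better under TNFα, but under some other settings, given below, a few passed the other way. In limma's test on log2 ranks over the 5073 clusters in the 4 treated libraries, 32 of the 300 (10.7%) passed a Benjamini-Hochberg adjusted p of 0.05 with a better rank under TNFα, against 9.54% of all clusters, so the share is close to the background. With a better rank under cobimetinib 0 of the 300 passed, against 3.51% of all clusters, while 77 of the 300 (25.7%) had an unadjusted p under 0.05 in either direction, against 29.2% of all clusters. The median log2 rank difference was 0.53 over the 300 and 0.16 over all clusters. With ranks centered on the median cluster, 22 of the 300 (7.33%, against 6.01% of all clusters) passed with a better rank under TNFα and 0 (against 3.92%) under cobimetinib.

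The number of calls depended on the libraries. It fell to 19 (6.33%, against 6.54% of all clusters) without TNFα replicate 1, to 10 (3.33%, against 4.95%) without TNFα replicate 2 and to 8 (2.67%, against 2.84%) when the untreated libraries shared the fit. With percent coverage as the level it was 0, and 33 of the 300 (11%, against 17.4%) had an unadjusted p under 0.05. The ranks of both TNFα libraries were better than those of both cobimetinib libraries in 129 of the 300 (43%, against 33.7% of all clusters) and worse than both in 45 (15%, against 23.9%).

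**Figure D4:**
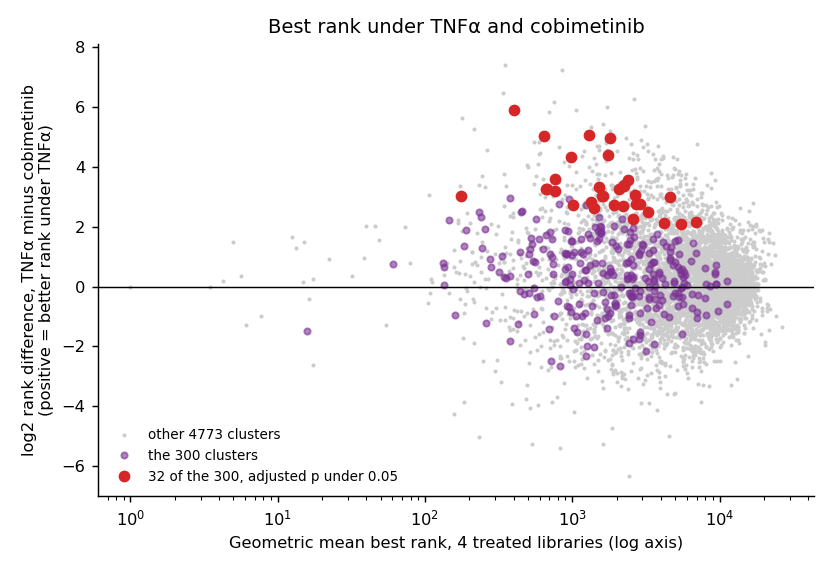
Log2 difference in best rank between TNFα and cobimetinib (y axis, positive values are a better rank under TNFα) against the geometric mean best rank in the 4 treated libraries (x axis, log scale) for each cluster. The 32 of the 300 that passed the adjusted test are red, with ranks that differ 4.28- to 58.8-fold, and all lie above 0.

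The PHLDB2 cluster at chr3:111901576-111918498 moved the most. It holds 2 regions and overlaps PHLDB2, which codes for a membrane-associated protein that anchors microtubules near focal adhesions. Its best ranks were 65 and 43 under TNFα, 223 and 476 in untreated cells, and 3031 and 3190 with cobimetinib, so the groups did not overlap and untreated cells lay in between. Between the treatments the rank differed 58.8-fold, a log2 difference of 5.88 ± 0.93 (SE) with an adjusted p of 0.00112. Its first region ranked 3998 and 3190 under cobimetinib and 104 and 43 under TNFα, and its second 3031 and 12709 against 65 and 68.

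The HS3ST1 cluster at chr4:11496837-11506508 lies 67273 bp from this gene of heparan sulfate 3-O-sulfation. It ranked 241 and 211 under TNFα, 528 and 755 in untreated cells, and 6271 and 9140 with cobimetinib, a log2 difference between the treatments of 5.07 ± 0.83 (adjusted p = 0.00136). The groups were again separate, with untreated cells in between.

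The PITPNC1 cluster at chr17:67420617-67441896 lies inside PITPNC1, a phosphatidylinositol transfer protein gene. It ranked 105 and 121 under TNFα, 342 and 771 in untreated cells, and 2396 and 5673 with cobimetinib, and the treatments differed by 5.03 ± 0.92 on the log2 scale (adjusted p = 0.00249). The RUNX1 cluster at chr21:34794815-34809052 lies inside the gene of this runt-family transcription factor. It ranked 194 and 539 under TNFα, 500 and 3325 in untreated cells, and 11729 and 8707 with cobimetinib, a log2 difference of 4.97 ± 0.81 (adjusted p = 0.0014). The TNFα and untreated ranks overlapped here, while those of cobimetinib stood apart.

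The fifth was the cluster at chr17:48471769-48485099, 41550 bp from SKAP1, an adaptor gene best known in T cells, and within 100 kb of MIR10A. It ranked 566 and 259 under TNFα, 1637 and 2143 in untreated cells, and 8530 and 7470 with cobimetinib, with a log2 difference of 4.38 ± 0.80 (adjusted p = 0.00249).

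Of the 32 called clusters, 9 kept an adjusted p under 0.05 when each of the 4 treated libraries was left out in turn. Among these 9 were the 5 above and those nearest to UTRN, the utrophin gene (log2 difference 4.32 ± 0.86, adjusted p = 0.0045), to ZBTB20, a zinc finger repressor gene (3.55 ± 0.73, adjusted p = 0.00561), and to SMAD3.

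**Figure D5:**
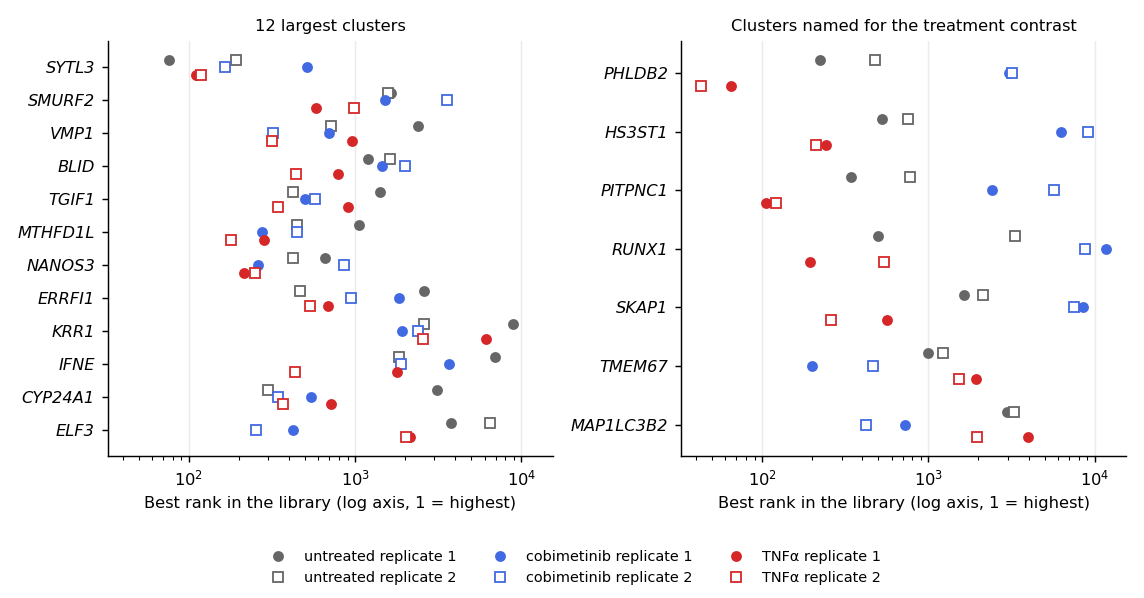
Best rank per library (x axis, log scale, 1 = highest) for the 12 largest clusters (left) and for the clusters named in the comparison of TNFα with cobimetinib (right), labeled by nearest protein-coding gene. Gray is untreated, blue cobimetinib and red TNFα, with filled circles for replicate 1 and open squares for replicate 2. PHLDB2 runs from 43 and 65 under TNFα to 3031 and 3190 under cobimetinib, and ELF3, TMEM67 and MAP1LC3B2 lie the other way.

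Over the 32, best ranks differed between the treatments 4.28- to 58.8-fold, with a median of 8.28-fold. Among them were clusters at SMAD3 (3.40 ± 0.74, adjusted p = 0.00724), the transcription factor of TGF-β signaling, at CD109 (3.31 ± 0.80, adjusted p = 0.0135), a surface protein that binds TGF-β, and at ITGA3 (2.72 ± 0.86, adjusted p = 0.0459), the laminin-binding integrin subunit. Clusters at the cell-cycle kinase gene CDK6 (3.01 ± 0.87, adjusted p = 0.0328), the thioredoxin reductase gene TXNRD1 (2.76 ± 0.71, adjusted p = 0.0188) and the actin-oxidizing enzyme gene MICAL2 (3.02 ± 0.80, adjusted p = 0.0209) were also called. These members were named after their values were seen.

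For each of these 6 except SMAD3, leaving out 1 treated library raised the adjusted p above 0.05. In 25 of the 32, both cobimetinib libraries ranked worse than both untreated libraries, against 22.1% of all clusters. In 21 of the 32, both TNFα libraries ranked better than both untreated ones, against 27.5% of all clusters. Both held in 16. The 32 were called for better ranks under TNFα than under cobimetinib, which favors both patterns, so these counts are a description. The largest called cluster was 36th in size, and the median region length of the 32 was 4723.5 bp, against 5063 bp for the 268 that were not called.

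The clusters with listed genes nearby mostly did not pass this test. PHLDA1, a MAPK response gene, had 2 clusters nearest to it. The cluster 152573 bp away ranked 9293 and 5452 under cobimetinib and 1275 and 853 under TNFα (log2 difference 2.77 ± 0.72, adjusted p = 0.0198), and the nearer cluster, 70771 bp away, ranked 4799 and 4163 against 2218 and 1685 (1.21 ± 0.69, adjusted p = 0.26). EPHA2 codes for an ephrin receptor, and the cluster within its gene ranked 2345 and 3893 under TNFα, 7412 and 1672 in untreated cells, and 8974 and 8918 with cobimetinib (1.57 ± 0.60, adjusted p = 0.0898). The cluster 1795 bp from FOSL1, the AP-1 subunit gene, ranked 460 and 2039 under cobimetinib and 1260 and 576 under TNFα, and these overlapped (0.19 ± 0.96, adjusted p = 0.922).

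At EGFR the intragenic cluster ranked 878 and 542 under TNFα, 402 and 1358 in untreated cells, and 2069 and 985 with cobimetinib (1.05 ± 0.88, adjusted p = 0.462). PLAU codes for urokinase, and its cluster ranked 1677 and 1383 under cobimetinib and 737 and 642 under TNFα (1.15 ± 0.85, adjusted p = 0.4). The JUND cluster ranked 1116 and 1220 under cobimetinib and 2113 and 2745 under TNFα, in the opposite direction (-1.05 ± 0.79, adjusted p = 0.406). The KLF6 cluster ranked 7187 and 3628 under cobimetinib and 992 and 1774 under TNFα (1.94 ± 0.74, adjusted p = 0.092). The groups did not overlap at PLAU, JUND or KLF6, and with 2 libraries each the test did not call them.

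Of the other listed genes, CRIM1 lay within 100 kb of the called FEZ2 cluster, with ranks of 1538 and 2757 under cobimetinib and 303 and 154 under TNFα (3.25 ± 0.92, adjusted p = 0.0293). ITGA3 and SMAD3, given above, were the remaining listed genes with a called cluster. The second SMAD3 cluster, which contains an annotated start of the gene, had an adjusted p of 0.0542. The clusters near KRT7 and KRT80, KRT20, CDH1, CLDN3 and CLDN4, ITGB1, EHF, TCF7L2, MAFF, TEAD3 and ID1 had adjusted p-values from 0.0545 for the cluster near TEAD3 to 0.936 for the CLDN4 cluster.

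ELF3 showed the opposite pattern among the largest clusters. Its cluster at chr1:202016686-202058788 ranked 2124 and 2030 under TNFα, 3796 and 6447 in untreated cells, and 424 and 255 with cobimetinib, so both cobimetinib libraries were better than the other 4. The log2 difference of TNFα from cobimetinib was -2.66 ± 0.88 (adjusted p = 0.0554) and that of cobimetinib from untreated 3.91 ± 0.82 (adjusted p = 0.113), neither of which passed. Region 5, at its end, ranked 425 and 265 under cobimetinib and from 8447 to 16951 in the other 4 libraries. The next largest differences in this direction with separate groups were at TMEM67 (198 and 467 under cobimetinib, 1927 and 1526 under TNFα, adjusted p = 0.0794) and MAP1LC3B2 (725 and 422 against 3954 and 1946, adjusted p = 0.0803).

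Mean coverage was higher under TNFα than under cobimetinib, and neither limma's test per cluster, given above, nor a test over libraries called the difference. The 20000 highest peaks covered 78.7% ± 2.42 (SD, n = 2) of the region bases of a cluster under TNFα and 73.6% ± 0.563 (n = 2) under cobimetinib, a difference of 5.03 percentage points. The exact two-sided permutation test over libraries gave p = 0.33, the smallest that 2 against 2 allows, and the difference over the other clusters was 1.20. Coverage was higher in both TNFα libraries than in both cobimetinib libraries in 116 of the 300 (38.7%, against 26.6% of all clusters) and lower in 47 (15.7%, against 23.9%).

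Cobimetinib against untreated cells gave 0 calls among the 300 and 0 among all 5073 clusters (0%) in limma's test. At an unadjusted p under 0.05 there were 37 of the 300 (12.3%), against 15.7% of all clusters. The median log2 rank difference was -0.21 over the 300 and 0.14 over all. Both cobimetinib libraries ranked better than both untreated libraries in 55 (18.3%, against 23.5%) and worse in 80 (26.7%, against 22.1%). Without untreated replicate 1, 23 of the 300 (7.67%) were called, against 26.3% of all clusters. These were 10 with a better rank under cobimetinib (3.33%, against 20%) and 13 with a worse rank (4.33%, against 6.29%).

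The largest falls with separate groups were at HS3ST1, whose ranks are given above (log2 difference of -3.58), at LMO7, and at the second SMAD3 cluster, at chr15:67090631-67108023. LMO7 codes for a LIM protein of cell junctions, and its cluster ranked 227 and 490 untreated and 5303 and 2414 under cobimetinib. The SMAD3 cluster ranked 193 and 600 untreated and 4203 and 2701 under cobimetinib. On the other side stood ELF3, then MAP1LC3B2, with 2980 and 3281 untreated and 725 and 422 under cobimetinib, and a cluster inside the DNA repair gene RAD51B, with 2189 and 7675 against 1407 and 396. These are values without a call.

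TNFα against untreated cells also gave 0 calls among the 300 and 0 of 5073 (0%), with 29 of the 300 (9.67%) at an unadjusted p under 0.05, against 10.6%. The median log2 rank difference was 0.41 over the 300 and 0.36 over all clusters. Both TNFα libraries ranked better than both untreated libraries in 92 (30.7%, against 27.5%) and worse in 19 (6.33%, against 13.4%). Without untreated replicate 1, 13 of the 300 (4.33%) were called, against 22.3% of all clusters. These were 8 with a better rank under TNFα (2.67%, against 19%) and 5 with a worse rank (1.67%, against 3.33%).

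The largest difference was at PPARD, which codes for a lipid-sensing nuclear receptor. Its cluster ranked 4094 and 32043 untreated and 255 and 925 under TNFα, where the rank of 32043 was that of untreated replicate 2. The SH3TC2 cluster ranked 358 and 4363 untreated and 214 and 84 under TNFα, and the ZBTB20 cluster 4387 and 5281 against 787 and 619. In the other direction were a cluster near ANXA3 and in FRAS1, with 346 and 695 untreated and 2594 and 1402 under TNFα, the GRK5 cluster, with 638 and 860 against 3534 and 1792, and the PCDH7 cluster, with 3540 and 1352 against 9918 and 4306. Again no call was made for these.

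Coverage against untreated cells followed the unlike untreated libraries. Mean coverage was 64.9% ± 27.8 (SD, n = 2) untreated, so the differences of 8.78 percentage points for cobimetinib and 13.8 for TNFα were smaller than the spread (exact two-sided permutation test, p = 1 for each). Without untreated replicate 2 both turned negative, at -10.9 and -5.85 percentage points.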

How the data were processed

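The peak lists were deposited by the authors, 1 per H3K27ac library, in hg38 coordinates. Per the labels and the study's methods, reads were aligned with BWA (0.7.15) and peaks were called with MACS2 (2.1.1), on paired-end and on single-end alignments. The deposited value used here is the score in the fifth column of each list, which rises with depth, so it served only to rank peaks within a library. No read counts were used, and depth is unknown. Gene starts came from GENCODE (release 44), and the peaks' chromosome names and ends were checked against the hg38 reference.

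Best ranks were tested as -log2(rank) with limma (3.58.1, R 4.3.3; group means, trended variance, two-sided, Benjamini-Hochberg over 5073 clusters). Cobimetinib and TNFα were each compared with untreated in a fit of all 6 libraries, and with each other in a fit of the 4 treated libraries. The fit of 4 was chosen with earlier results known, in which untreated replicate 2 stood apart. The numbers of calls therefore come from unlike fits. A cluster without a peak took the rank after the last. Coverage, 1 mean per library, was compared by exact permutation. The members and gene lists were chosen with earlier results of these data known. Named clusters were the 12 largest, up to 5 called per direction and contrast, those within 100 kb of a listed gene and, where nothing was called, the 3 largest differences per direction with separate libraries, and clusters named beyond this rule were chosen after their values were seen. Columns of other statistics in the lists were not used, and 1 cluster's sequence and values are not reported here.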

Additional observations from a re-analysis of the deposited data

How the results depend on the processing

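The count of 32 clusters called between TNFα and cobimetinib among the 300 was 55 with replicate block (49 better under TNFα, 6 under cobimetinib), 8 with all 6 libraries in the fit, 0 with percent of region bases covered as the level, and from 10 to 33 when 1 treated library was left out, and the cause was not tested. It stayed within 1.5 times of 32 under the other alternatives tried, including 10000 or 40000 peaks per library, regions held by all 6 libraries, stitching within 5 kb, a distance of 2.5 kb from starts, a choice by span, array weights, centered ranks, and clusters in the 20000 highest peaks of every library. The direction was not one-sided in all of these. Calls with a better rank under cobimetinib numbered 3 (1%, against 3.15% of all clusters) with 10000 peaks and 3 (1%, against 3.79%) with 40000. They numbered 2 (0.667%, against 4.3%) with regions held by all 6 libraries. There was 1 each with stitching within 5 kb, a choice by span, and clusters in the 20000 highest peaks of every library. With the block, all 32 were called, and the 6 included the ELF3, TMEM67 and MAP1LC3B2 clusters, the first with an adjusted p of 0.0141. The replicate numbers did not pair the libraries: deviations of same-numbered libraries correlated at 0.0916, 0.0814 and 0.105 over the clusters.

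Calls against untreated cells ranged from 0 to 23 for cobimetinib and from 0 to 13 for TNFα when 1 library was left out, and were 0 under the other alternatives. With 1 library left out, untreated or treated, the lone library of its group is assumed to vary like the other libraries of the fit. This holds also for the called clusters that kept or lost an adjusted p under 0.05 in such fits. The median log2 rank difference with 1 library left out ranged from 0.39 to 0.79 for TNFα minus cobimetinib, from 0.26 to 0.56 for TNFα minus untreated and from -0.48 to 0.01 for cobimetinib minus untreated. The corresponding ranges of the coverage difference were 3.31 to 6.74, -5.85 to 33.5 and -10.9 to 28.4 percentage points. Of the 300 clusters, 166 overlapped a member of the 300 made from 10000 peaks per library, 165 with stitching within 5 kb and 194 when chosen by span. The number was 220 with 40000 peaks, 221 with regions held by all 6 libraries and 290 at 2.5 kb from starts. With 2 libraries per group and unknown depth, a missed call does not show equal acetylation.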

Other observations

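MicroRNA genes recur among the largest clusters. Besides MIR21, MIR31, MIR23A, MIR27A and MIR24-2, the fourth cluster lay within 100 kb of MIR100, MIR125B1 and MIRLET7A2. It ranked 793 and 440 under TNFα, 1199 and 1610 in untreated cells, and 1442 and 1993 with cobimetinib, a difference between the treatments that was not called (1.52 ± 0.87 on the log2 scale, adjusted p = 0.257). The IFNE cluster, near MIR31, ranked 1784 and 436 under TNFα, 6966 and 1847 in untreated cells, and 3661 and 1895 with cobimetinib (1.58 ± 0.88, adjusted p = 0.249). How often clusters of this length lie near microRNA genes was not tested.

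The cluster with the best ranks was at chr17:47491556-47513645, 9297 bp from NPEPPS, a gene of a cytosolic aminopeptidase, and contained the start of MRPL45P2. It ranked 20 and 35 under TNFα, 17 and 130 in untreated cells, and 8 and 11 with cobimetinib. Background at this locus was not tested, since the IgG libraries were not analysed here. By chromosome, 29 of the 300 lay on chromosome 2, 27 on 12, 26 on 10 and 23 on 1, which is 7.47%, 9.25%, 8.75% and 4.33% of the stitched clusters there. Copy number was not measured.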
